A study of Arabidopsis thaliana with 9 samples.

Results

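UDP-glycosyltransferases other than the UGT74 genes were described in Arabidopsis thaliana seedlings. A gene was counted as a member where the annotation columns of a deposited table named the UDPGT domain family, and 7 UGT74 genes were left out. This gave 104 members of 29071 genes, of which 100 are annotated as protein-coding and 4 as long non-coding RNA. All members were listed in the EtBr table and 95 in the doxycycline table. The seedlings were wild type Col-0, 7 days old and grown on Murashige and Skoog medium. They received water, doxycycline (Dox) or ethidium bromide (EtBr). Doxycycline is a tetracycline antibiotic that stops protein synthesis in chloroplasts and mitochondria. Ethidium bromide slips between the bases of DNA and disturbs its copying, above all in organelles. RNA was sequenced from total seedlings, with 3 libraries per group. The dose, the length of treatment and the number of pooled seedlings are not given in the labels, and no label says whether the 3 libraries of a group came from different plates. P-values therefore measure only the spread between these libraries, which may be technical.

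UDP-glycosyltransferases move a sugar from a UDP-sugar to a small molecule. In plants their acceptors include hormones, flavonoids, monolignols, sterols, and foreign compounds such as herbicides and fungal toxins. The sugar makes the acceptor more soluble and often inactive, and many glycosides are then carried into the vacuole. The family is numbered by sequence, so that UGT73C5 stands for family 73, group C and gene 5. Near its carboxyl end each enzyme carries a signature box that holds the UDP-sugar.

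The libraries held 17724030 to 20330871 reads over the listed genes. Levels below are normalized counts, that is, reads recovered from the deposited values and divided by size factors common to all 9 libraries, unless a table is named. Every log2 change is a difference of log2(value + 1), given with its SE, with n = 3 per group. The estimates come from limma with Benjamini-Hochberg adjustment over all genes of the table, and a gene passed at an adjusted p under 0.05. EtBr replicate 3 stood somewhat apart: its correlation with the other EtBr libraries over genes was 0.957 to 0.9601, against 0.9821 between those. In EtBr against water the median change of all genes was 0.39, and 0.34 and 0.48 with 2 other scalings. Over genes with a mean of at least 10 it was only 0.09. The shift was thus small for genes with more reads. Single EtBr changes were tested against 0 and were not corrected for the shift. In EtBr against doxycycline the median of all genes was 0.14, and 0.04 and 0.27 with the other scalings. Over genes with a mean of at least 10 it was 0.075. In whole seedlings fewer cells of a type and less RNA per cell cannot be told apart.

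On the log2(value + 1) scale UGT73B4, UGT73C1 and UGT73C5 gave the 3 largest rises of the family under doxycycline, and the close relation of the UGT73B and UGT73C genes bears on how far their reads can be told apart. Of the 100 protein-coding members, 62 lay within 10 kb of another member, in 22 arrays of up to 5 genes. UGT73C1, UGT73C2, UGT73C4, UGT73C3 and UGT73C5 form such an array of members on the reverse strand of chromosome 2. The array is not complete as a gene cluster. The protein-coding gene AT2G36790, which is not a member, overlaps the non-coding member AT2G36792 between UGT73C3 and UGT73C5. The coding sequences of UGT73C3 and UGT73C4 are 91.3% identical, and those of UGT73C1 and UGT73C5 80.3%. Below is the stretch of 44 codons that encodes the signature box of the 4 genes of this array that passed both tests, read 5′ to 3′ on the coding strand from the RefSeq assembly TAIR10.1. Capitals mark the 34 of 132 bases at which the 4 genes are not all alike.
UGT73C1: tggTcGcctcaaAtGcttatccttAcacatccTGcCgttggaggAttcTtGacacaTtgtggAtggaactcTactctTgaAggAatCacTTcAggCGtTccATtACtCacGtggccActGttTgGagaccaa
UGT73C3: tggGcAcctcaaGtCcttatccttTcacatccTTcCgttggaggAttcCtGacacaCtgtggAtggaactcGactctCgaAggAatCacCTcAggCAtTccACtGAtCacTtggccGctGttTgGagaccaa
UGT73C4: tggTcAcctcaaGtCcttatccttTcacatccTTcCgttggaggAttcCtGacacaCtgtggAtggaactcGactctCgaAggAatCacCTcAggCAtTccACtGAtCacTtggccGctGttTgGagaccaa
UGT73C5: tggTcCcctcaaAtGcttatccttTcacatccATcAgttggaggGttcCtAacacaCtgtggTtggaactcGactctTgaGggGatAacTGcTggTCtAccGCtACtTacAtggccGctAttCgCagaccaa
The coding positions are chr2:15410825-15410956, chr2:15417912-15418043, chr2:15415521-15415652 and chr2:15423787-15423918, in the same order. UGT73C3 and UGT73C4 differ at 1 base of the box, and UGT73C5 differs from UGT73C1 at 27.

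Doxycycline raised 18 of the 95 listed members and lowered 8. Among the 24434 genes tested 11.7% passed, 6.47% as rises and 5.27% as falls, against 18.9% and 8.42% of the members. The median change was 0.21 over the members and -0.01 over all genes. With each of the 6 libraries left out in turn, 13 to 16 members rose and 0 to 2 fell. Of the 18 rises 13 held in all 6 omissions, and none of the 8 falls did. Over all genes the same omissions gave 520 to 1168 rises in place of 1581 and 248 to 812 falls in place of 1287. EtBr raised 46 of 104 members (44.2%) and lowered 20 (19.2%), where 55.4% of all 28956 genes passed, 34.2% as rises and 21.2% as falls. The median change was 0.60 over the members, or 0.50 with the 13 members at 0 reads in water set to the bound that 3 reads allow. The share of members that fell under EtBr was near that of all genes. A gene at 0 reads in water is in the table through its EtBr reads and could not be called lower. Of the 91 members with a read in water 38.5% rose and 22.0% fell, against 30.5% and 25.3% of the 24198 such genes. Between the treatments 30 members were higher under EtBr and 26 lower, or 31.6% and 27.4% of 95, against 32.4% and 24.8% of all genes, of which 57.3% passed, and these shares too were near those of all genes.

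Together the members took 0.137 to 0.179% of the reads in water, 0.232 to 0.264% under doxycycline and 0.261 to 0.299% under EtBr. The UGT73 genes made up 5.78 to 7.08% of these member reads in water, 26.6 to 32.3% under doxycycline and 29.6 to 33.1% under EtBr. The treated libraries of both kinds lay above all water libraries in both shares. UGT76C2 was the 1 member called in opposite directions by the comparisons with water, which share their water libraries.

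**Figure D1:**
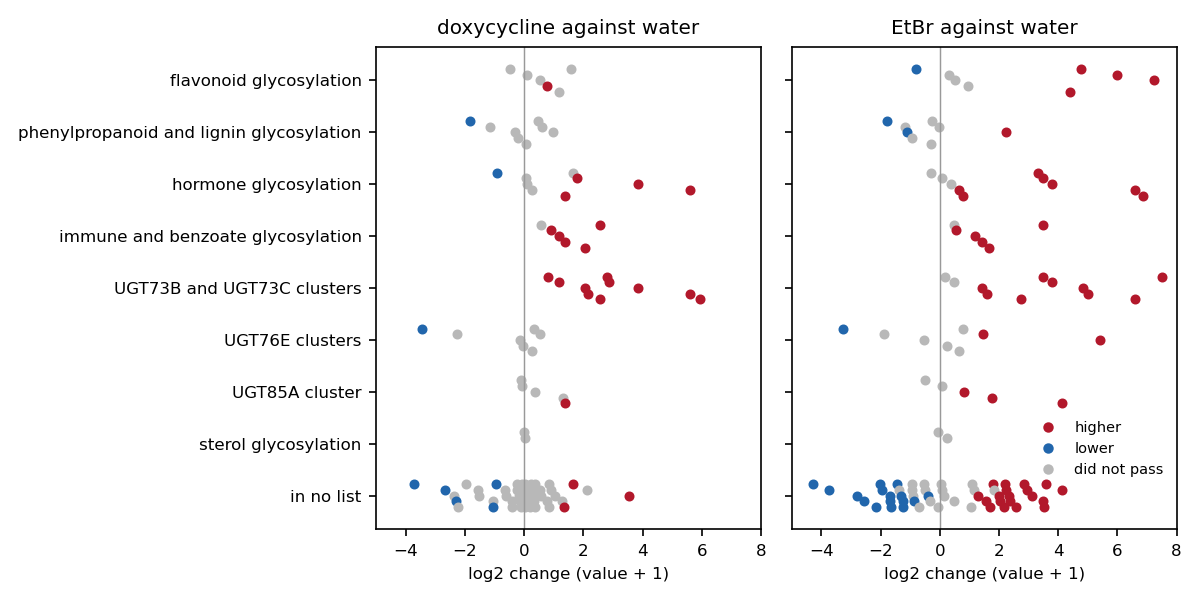
Log2 change of each member against water, by list, for doxycycline (left) and EtBr (right); each point is 1 gene, red passed as higher, blue passed as lower and grey did not pass, and a gene can stand in 2 lists. All 10 measured UGT73B and UGT73C genes were red under doxycycline and 9 of 11 under EtBr, of which UGT73C2 had no read in water and could not fall.

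The list of UGT73B and UGT73C genes holds 12, of which 11 were measured. All 10 listed for doxycycline rose, where 6.47% of all genes did, with a median change of 2.68. With 1 library left out 8 or 9 rose. The lists were chosen with earlier results of these data known. UGT73D1, the UGT73 member outside this list, lies beside UGT73C7 and did not pass for doxycycline. Of the 11 UGT73 genes tested there 10 rose. EtBr raised 9 of 11, where 34.2% of all genes rose, with a median of 3.47, and 9 or 10 with 1 library left out. Of the 9, UGT73C2 had no read in water and could not fall. Among all genes with a read in water 30.5% rose. UGT73D1 also rose under EtBr, a call that was lost without EtBr replicate 2 (adjusted p = 0.0679). UGT73B4, known for glucosylating reduced forms of the explosive TNT, had 8.22, 23.8 and 17.0 in the water libraries, 769, 984 and 1290 under doxycycline and 3258, 3436 and 2248 under EtBr. Every treated library was far above every water library. The change was 5.94 ± 0.35, adjusted p = 3.5e-06 for doxycycline and 7.50 ± 0.36, adjusted p = 4.7e-06 for EtBr. UGT73B4 (chr2:6761635-6763500, forward strand) lies wholly within the annotated span of UGT73B5 (chr2:6758430-6763501), and their coding sequences are 92.3% identical, so their reads may be shared. UGT73B5, needed for full resistance to avirulent Pseudomonas, had 152, 207 and 199 in the water libraries, 1133, 1071 and 1128 under doxycycline and 2285, 2120 and 1888 under EtBr. The 3 groups did not overlap. Its change was 2.57 ± 0.14, adjusted p = 2.6e-06 for doxycycline and 3.47 ± 0.16, adjusted p = 4.4e-06 for EtBr.

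In the UGT73C array UGT73C1, which also glucosylates TNT products and cytokinins, was almost silent in water. It had 2.06, 3.96 and 1.06 in the water libraries, 100.3, 135 and 275 under doxycycline and 339, 370.0 and 219.9 under EtBr. It rose under doxycycline (log2 change 5.61 ± 0.50, adjusted p = 6.4e-05) and under EtBr (log2 change 6.58 ± 0.43, adjusted p = 1.4e-05). UGT73C5 inactivates brassinosteroids and the fungal toxin deoxynivalenol, and per kilobase it was the highest gene of the group under both treatments. Its levels were 456, 367 and 297 in the water libraries, 4731, 4665 and 7175 under doxycycline and 5213, 5152 and 5367 under EtBr. It rose 14.7-fold for doxycycline (log2 change 3.86 ± 0.20, adjusted p = 1.5e-06) and 13.8-fold for EtBr (log2 change 3.81 ± 0.17, adjusted p = 3.7e-06). UGT73C4 had 65.8, 26.7 and 63.8 in the water libraries, 296, 359 and 433 under doxycycline and 1184, 1384 and 2563 under EtBr, so that the 3 groups were separate. It rose under doxycycline (log2 change 2.85 ± 0.34, adjusted p = 0.00043) and further under EtBr (log2 change 5.01 ± 0.40, adjusted p = 3.4e-05). Its neighbour UGT73C3 had 132, 148 and 140.4 in the water libraries, 272, 201 and 273 under doxycycline and 824, 779 and 1389 under EtBr. EtBr raised it (log2 change 2.75 ± 0.23, adjusted p = 4e-05). Its rise under doxycycline was small (log2 change 0.80 ± 0.19, adjusted p = 0.021) and was lost without doxycycline replicate 1 or 3 and also without any 1 water library (adjusted p 0.0725 to 0.137). UGT73C2, not listed in the doxycycline table, had no read in water and 22.0, 24.8 and 37.3 on the deposited scale under EtBr, at least 26.5-fold higher with the water group set to 3 reads in all (adjusted p = 6.6e-05). UGT73C7 (chr3:19702332-19703976) glucosylates phenylpropanoid acids in immunity and stands outside the array. It had 57.5, 67.3 and 52.1 in the water libraries, 146, 133 and 125 under doxycycline and 186, 161 and 139 under EtBr. EtBr raised it (log2 change 1.42 ± 0.23, adjusted p = 0.00098), and its rise under doxycycline (log2 change 1.17 ± 0.23, adjusted p = 0.0087) was lost without any 1 doxycycline library and also without water replicate 3 (adjusted p 0.0515 to 0.0763).

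The array of UGT73B1, UGT73B2 and UGT73B3 on chromosome 4 had the opposite order of the treatments. UGT73B1, which can glucosylate abscisic acid in vitro, had 305, 225 and 184 in the water libraries, 962, 1250 and 939.7 under doxycycline and 344, 225 and 247 under EtBr. All doxycycline libraries were high, and the EtBr libraries overlapped those of water. UGT73B2, which acts on flavonoids, had 495, 472 and 424 in the water libraries, 2974, 2944 and 3828 under doxycycline and 1292, 1062 and 2140 under EtBr. UGT73B3, needed with UGT73B5 in the resistance to Pseudomonas, had 444, 259 and 239 in the water libraries, 1224, 1289 and 1335 under doxycycline and 371, 408 and 518 under EtBr. For UGT73B3 the EtBr libraries overlapped water, and for UGT73B2 they lay between the other groups. Doxycycline raised UGT73B1 (log2 change 2.14 ± 0.19, adjusted p = 6e-05), UGT73B2 (log2 change 2.78 ± 0.13, adjusted p = 8.8e-07) and UGT73B3 (log2 change 2.07 ± 0.20, adjusted p = 0.00013). Under EtBr UGT73B2 rose (log2 change 1.60 ± 0.24, adjusted p = 0.00074), while UGT73B1 (log2 change 0.18 ± 0.24, adjusted p = 0.55) and UGT73B3 (log2 change 0.48 ± 0.26, adjusted p = 0.14) did not pass. In EtBr against doxycycline all 3 were lower: UGT73B1 (log2 change -1.96 ± 0.19, adjusted p = 0.00029), UGT73B2 (log2 change -1.17 ± 0.26, adjusted p = 0.0086) and UGT73B3 (log2 change -1.58 ± 0.14, adjusted p = 0.00018). In the same comparison UGT73B4 (log2 change 1.56 ± 0.23, adjusted p = 0.0016), UGT73B5 (log2 change 0.91 ± 0.095, adjusted p = 0.00035), UGT73C3 (log2 change 1.96 ± 0.25, adjusted p = 0.00079) and UGT73C4 (log2 change 2.17 ± 0.30, adjusted p = 0.0011) were higher. UGT73C1 (log2 change 0.96 ± 0.40, adjusted p = 0.077), UGT73C5 (log2 change -0.04 ± 0.18, adjusted p = 0.84) and UGT73C7 (log2 change 0.26 ± 0.17, adjusted p = 0.23) did not pass. The coding sequences of UGT73B2 and UGT73B3 are 89.4% identical. UGT73B1 shares 1015 bases and UGT73B3 283 with annotated genes on the opposite strand.

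**Figure D2:**
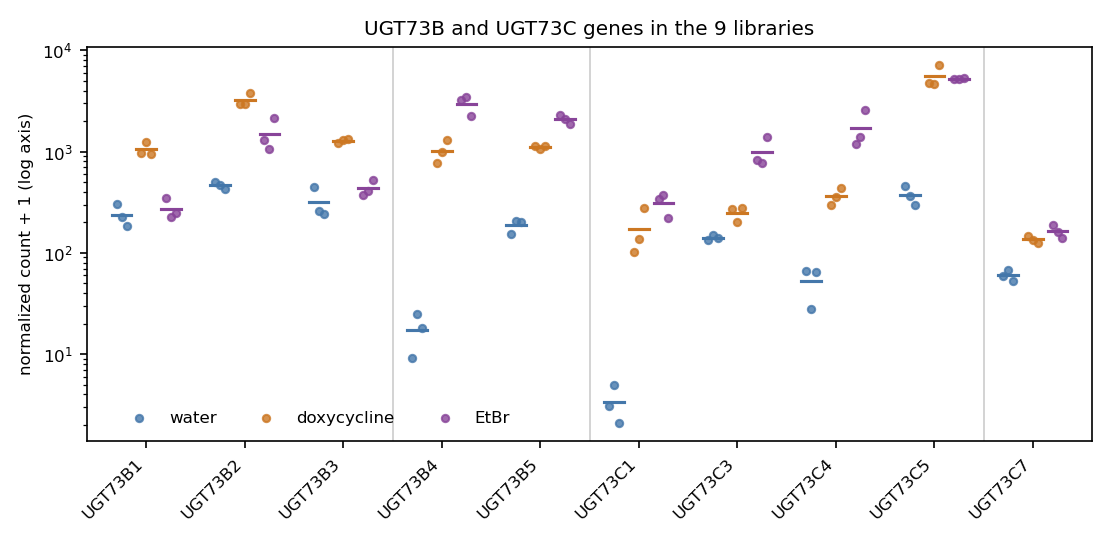
Normalized counts plus 1 (log axis) of 10 UGT73B and UGT73C genes; each point is a library, short lines are group means (n = 3), and grey lines part the genes by array. UGT73B1, UGT73B2 and UGT73B3 were highest under doxycycline, while UGT73B4, UGT73B5, UGT73C3 and UGT73C4 were highest under EtBr.

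The 250 bases upstream of the annotated start of these genes were searched for TGACG, the core of the element bound by TGA factors, on both strands. TGA factors act with the protein SCL14 on genes of xenobiotic response. The motif was in 18.6% of such windows of 27443 nuclear protein-coding genes, in 21.0% of the 100 protein-coding members and in 5 of the 11 UGT73B and UGT73C members. It was in 8 of the 18 members that rose under doxycycline and in 11 of the 65 protein-coding members that did not pass there. Windows of 4 UGT73B genes and of UGT73C1 are shown as examples with and without TGACG, chosen among genes that rose under doxycycline. They are read 5′ to 3′ on the gene's strand from RefSeq TAIR10.1, and capitals mark TGACG or its reverse complement CGTCA.
UGT73B1: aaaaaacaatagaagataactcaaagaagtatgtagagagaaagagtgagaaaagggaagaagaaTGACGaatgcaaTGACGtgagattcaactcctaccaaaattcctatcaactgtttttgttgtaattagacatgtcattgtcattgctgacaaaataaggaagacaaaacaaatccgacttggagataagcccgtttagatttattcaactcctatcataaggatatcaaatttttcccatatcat
UGT73B3: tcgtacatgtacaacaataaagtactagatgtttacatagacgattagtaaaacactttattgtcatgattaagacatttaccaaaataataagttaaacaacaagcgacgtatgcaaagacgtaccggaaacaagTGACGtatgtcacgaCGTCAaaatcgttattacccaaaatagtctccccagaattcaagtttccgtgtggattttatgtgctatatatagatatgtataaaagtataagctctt
UGT73B2: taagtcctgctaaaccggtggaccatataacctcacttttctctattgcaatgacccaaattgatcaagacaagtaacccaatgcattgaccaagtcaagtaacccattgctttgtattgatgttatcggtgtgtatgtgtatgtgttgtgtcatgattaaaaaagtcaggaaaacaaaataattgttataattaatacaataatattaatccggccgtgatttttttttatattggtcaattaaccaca
UGT73B5: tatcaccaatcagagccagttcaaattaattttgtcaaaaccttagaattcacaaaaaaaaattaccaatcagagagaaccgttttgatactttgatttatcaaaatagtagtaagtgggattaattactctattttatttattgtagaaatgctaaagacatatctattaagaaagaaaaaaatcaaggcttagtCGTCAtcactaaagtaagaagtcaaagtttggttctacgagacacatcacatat
UGT73C1: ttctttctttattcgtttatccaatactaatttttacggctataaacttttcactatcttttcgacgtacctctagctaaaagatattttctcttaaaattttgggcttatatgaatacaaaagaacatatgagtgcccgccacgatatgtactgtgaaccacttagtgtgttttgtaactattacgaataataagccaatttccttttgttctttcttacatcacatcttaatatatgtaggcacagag
They lie at chr4:16350204-16350453, chr4:16344819-16345068 and chr4:16347435-16347684 on the reverse strand, chr2:6758180-6758429 on the forward strand and chr2:15412065-15412314 on the reverse strand. UGT73B1 and UGT73B3 held 2 matches each, UGT73B5 held 1, and UGT73B2 and UGT73C1 held none. Of the UGT73B and UGT73C windows not shown, UGT73B4 held 2 matches, UGT73C5 held 1 and the others none. The 5 genes shown were chosen with their rises known, and the part of either motif in the rises was not tested. A match is a run of letters, not a site of binding.

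Glycosyltransferases of hormones rose in 4 of 9 listed members under doxycycline and fell in 1, where 6.47% of all genes rose and 5.27% fell. Under EtBr 7 of 10 rose with no fall, where 34.2% of all genes rose and 21.2% fell. Of the 7, UGT84B1 and UGT71B8 had no read in water and could not fall. The list shares UGT73C1 and UGT73C5 with the group above. UGT75D1, which glucosylates the auxin indole-3-butyric acid and overlaps 210 bases of a gene on the opposite strand, had 259, 232 and 196 in the water libraries, 655, 725 and 1029 under doxycycline and 2397, 2486 and 2848 under EtBr. The 3 groups were separate, with EtBr highest. It rose under doxycycline (log2 change 1.77 ± 0.19, adjusted p = 0.0002) and EtBr (log2 change 3.47 ± 0.15, adjusted p = 3.6e-06), and was higher under EtBr than under doxycycline (log2 change 1.70 ± 0.18, adjusted p = 0.00036). UGT71C5 makes the glucose ester of abscisic acid. Its levels were 1337, 1353 and 1354 in the water libraries, 1441, 1406 and 1411 under doxycycline and 2235, 2124 and 2122 under EtBr, and the doxycycline libraries lay only slightly above those of water. It rose under EtBr (log2 change 0.66 ± 0.11, adjusted p = 0.0011) and did not pass for doxycycline (log2 change 0.06 ± 0.095, adjusted p = 0.73), and EtBr was above doxycycline (log2 change 0.61 ± 0.072, adjusted p = 0.0006). UGT85A1, which glucosylates the cytokinin zeatin, had 2830, 2356 and 2261 in the water libraries, 6318, 5867 and 7484 under doxycycline and 2390, 2257 and 3326 under EtBr. Doxycycline raised it 2.62-fold (log2 change 1.39 ± 0.14, adjusted p = 0.00011), while EtBr and water overlapped (log2 change 0.06 ± 0.18, adjusted p = 0.78). Its level was lower under EtBr than under doxycycline (log2 change -1.32 ± 0.17, adjusted p = 0.00096). UGT71B7, an abscisic acid glucosyltransferase, had 1078, 926 and 872 in the water libraries, 1265, 1138 and 1091 under doxycycline and 756, 758 and 839.7 under EtBr. It passed in neither comparison with water and was lower under EtBr than under doxycycline (log2 change -0.57 ± 0.094, adjusted p = 0.0025).

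UGT84B1, which conjugates the auxin indole-3-acetic acid, had no read in water and was not listed for doxycycline. Under EtBr it had 89.7, 64.4 and 268 on the deposited scale, at least 133-fold higher (adjusted p = 4.3e-05). Replicate 3 held the highest of these values, and the mean without it was 77.0. UGT84B2 beside it had 9.67, 5.52 and 24.2, at least 12.4-fold higher (adjusted p = 0.0011). Their coding sequences are 84.0% identical. UGT71B8, close to the abscisic acid glucosyltransferases, had no read in water, 3.07, 1.01 and 3.06 under doxycycline and 18.3, 2.73 and 11.9 under EtBr. It was at least 10.5-fold higher under EtBr than in water (adjusted p = 0.0031). EtBr replicate 2 was the low library, and the deposited mean was 15.3 without it.

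The UGT76C array on chromosome 5 holds both cytokinin N-glucosyltransferases of Arabidopsis, UGT76C1 and UGT76C2, and its genes were called in different directions. UGT76C2 had 292, 332 and 359 in the water libraries, 198, 148 and 178 under doxycycline and 536, 648 and 529 under EtBr. The groups did not overlap. It fell under doxycycline (log2 change -0.92 ± 0.17, adjusted p = 0.0067), a call that was lost without doxycycline replicate 2 or 3 and also without water replicate 2 or 3 (adjusted p 0.0560 to 0.0778). It rose under EtBr (log2 change 0.78 ± 0.15, adjusted p = 0.0028), and EtBr was above doxycycline (log2 change 1.71 ± 0.15, adjusted p = 0.0002). UGT76C1 did not pass in any of the 3 comparisons, with changes of 0.11 ± 0.17, 0.40 ± 0.17 and 0.29 ± 0.11. UGT76C4 had 192, 165 and 198 in the water libraries, 116, 85.1 and 92.8 under doxycycline and 104, 108 and 92.5 under EtBr, so that both treatments lay below water. It fell under EtBr (log2 change -0.88 ± 0.19, adjusted p = 0.0043), and its fall under doxycycline (log2 change -0.93 ± 0.21, adjusted p = 0.016) was lost without any 1 doxycycline library and also without water replicate 1 or 3 (adjusted p 0.0537 to 0.103). UGT76C5 had 268, 334 and 336 in the water libraries, 244, 301 and 256 under doxycycline and 115, 72.7 and 63.7 under EtBr. It fell under EtBr (log2 change -1.95 ± 0.25, adjusted p = 0.00033) and did not pass for doxycycline (log2 change -0.24 ± 0.16, adjusted p = 0.38). UGT76C3 had 12.3, 4.95 and 21.3 in the water libraries, 3.07, 0 and 3.06 under doxycycline and 11.3, 16.4 and 22.9 under EtBr. It was higher under EtBr than under doxycycline (log2 change 2.76 ± 0.64, adjusted p = 0.01), and it did not pass against water for doxycycline (log2 change -2.24 ± 0.73, adjusted p = 0.075) or EtBr (log2 change 0.49 ± 0.57, adjusted p = 0.47). The pair UGT76F1 and UGT76F2 on chromosome 3 also split. UGT76F2 had 70.9, 89.0 and 91.5 in the water libraries, 106, 129 and 141 under doxycycline and 22.6, 8.18 and 12.9 under EtBr and fell under EtBr (log2 change -2.57 ± 0.41, adjusted p = 0.00091). UGT76F1, which glucosylates an auxin precursor, was higher under EtBr than under doxycycline (log2 change 3.75 ± 0.57, adjusted p = 0.0017), and its rise over water (log2 change 2.16 ± 0.77, adjusted p = 0.041) was lost without water replicate 1 or 2 and also without any 1 EtBr library (adjusted p 0.0988 to 0.190).

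**Figure D3:**
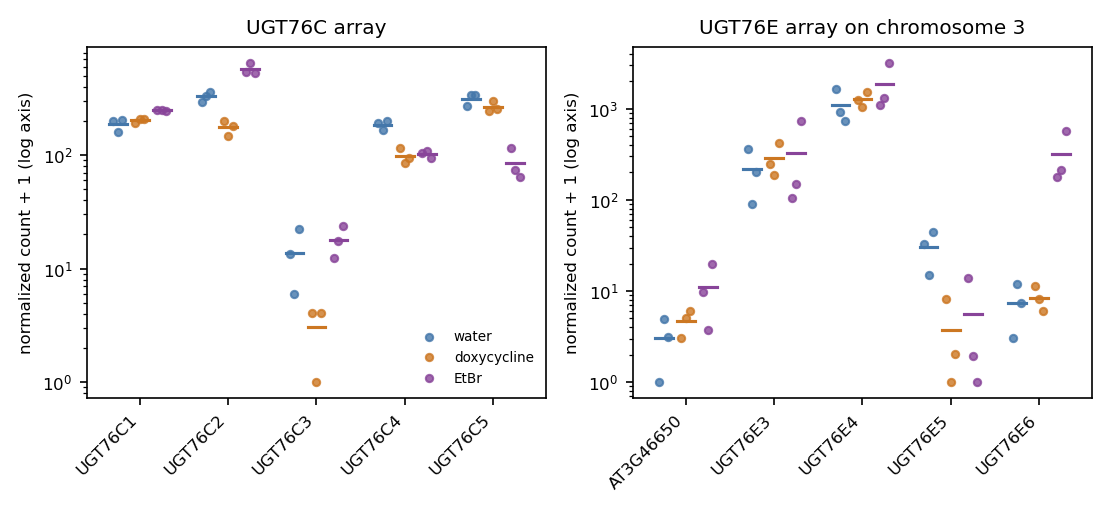
Normalized counts plus 1 (log axis) of the genes of the UGT76C array (left) and of the UGT76E array on chromosome 3 (right); points are libraries and short lines group means (n = 3). Doxycycline libraries lay below and EtBr libraries above water for UGT76C2, and all EtBr libraries lay above the others for UGT76E6.

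Of the UGT76E genes 1 of 7 listed passed under doxycycline, as a fall, or 14.3% called against 11.7% of all genes. Under EtBr 2 of 8 rose and 1 fell, or 37.5% called against 55.4% of all genes. UGT76E6 had 2.06, 10.9 and 6.38 in the water libraries, 10.2, 7.09 and 5.10 under doxycycline and 176, 214 and 566 under EtBr. The doxycycline and water libraries overlapped, and all EtBr libraries stood far above them. It rose under EtBr (log2 change 5.42 ± 0.60, adjusted p = 0.00016), with the highest value in replicate 3, and EtBr was above doxycycline (log2 change 5.09 ± 0.49, adjusted p = 0.00028). An annotated RNA on the opposite strand shares 715 bases with it. UGT76E2, in the array on chromosome 5, had 77.1, 36.6 and 71.3 in the water libraries, 76.8, 46.6 and 42.8 under doxycycline and 153, 226 and 134 under EtBr. Its rise under EtBr (log2 change 1.47 ± 0.34, adjusted p = 0.0065) was lost without EtBr replicate 1 or 2 (adjusted p 0.0503 to 0.0610). UGT76E5 was low in all treated libraries and fell in both comparisons. The call under doxycycline (log2 change -3.45 ± 0.77, adjusted p = 0.016) was lost without doxycycline replicate 2 or 3 and also without any 1 water library (adjusted p 0.0810 to 0.168), and that under EtBr (log2 change -3.25 ± 0.95, adjusted p = 0.019) was lost without water replicate 1 or 3 and also without EtBr replicate 2 or 3 (adjusted p 0.0631 to 0.139). In the UGT85A array on chromosome 1, UGT85A1 was the only gene of 5 to rise under doxycycline, while UGT85A2, UGT85A3 and UGT85A7 rose under EtBr. UGT85A3 had 39.0, 62.3 and 58.5 in the water libraries, 37.9, 80.0 and 37.7 under doxycycline and 157, 181 and 217 under EtBr, and the EtBr libraries lay above all others (log2 change 1.77 ± 0.26, adjusted p = 0.00064). For UGT85A2 the EtBr call (log2 change 0.83 ± 0.29, adjusted p = 0.038) was lost without water replicate 2 or 3 and also without any 1 EtBr library (adjusted p 0.0744 to 0.197). UGT85A7 had 2 reads in water in all, and EtBr gave 32.2, 30.0 and 14.9 (adjusted p = 0.00068).

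Glycosyltransferases tied to immunity and benzoates rose in 5 of 6 members under each treatment, where 6.47% of all genes rose under doxycycline and 34.2% under EtBr, and 3 or 4 did for doxycycline with 1 library left out. The list holds UGT73B3, UGT73B5 and UGT73C7 of the group above. UGT76B1, which glucosylates salicylic acid and N-hydroxypipecolic acid, had 254, 128 and 383 in the water libraries, 311, 272 and 488 under doxycycline and 428, 394 and 913 under EtBr. It did not pass for doxycycline (log2 change 0.56 ± 0.36, adjusted p = 0.37), and its rise under EtBr (log2 change 1.183 ± 0.44, adjusted p = 0.048) was lost without water replicate 1 or 2 and also without any 1 EtBr library (adjusted p 0.0932 to 0.233). UGT76D1, which acts on dihydroxybenzoic acids, had 21.6, 15.8 and 25.5 in the water libraries, 55.3, 56.7 and 56.1 under doxycycline and 70.4, 47.3 and 93.5 under EtBr. EtBr raised it (log2 change 1.65 ± 0.36, adjusted p = 0.0051), and its rise under doxycycline (log2 change 1.39 ± 0.34, adjusted p = 0.024) was lost without any 1 of the 6 libraries (adjusted p 0.0527 to 0.111). UGT89A2, which makes a dihydroxybenzoate xyloside, had 146, 150.4 and 147 in the water libraries, 303, 276 and 265 under doxycycline and 215, 220.0 and 221 under EtBr. It rose under doxycycline (log2 change 0.91 ± 0.16, adjusted p = 0.0044) and under EtBr (log2 change 0.54 ± 0.16, adjusted p = 0.019). The difference between the treatments (log2 change -0.36 ± 0.11, adjusted p = 0.031) was lost without any 1 doxycycline library and also without EtBr replicate 1 or 2 (adjusted p 0.0503 to 0.104).

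In flavonoid and anthocyanin glycosylation 1 of 6 listed members rose under doxycycline, or 16.7% called against 11.7% of all genes. Under EtBr 4 of 8 rose and 1 fell, or 62.5% called against 55.4% of all genes. Of the 4 that rose, 3 had no read in water and could not fall. UGT78D3, a flavonol arabinosyltransferase, was not listed for doxycycline, had no read in water, and had 176, 174 and 109.8 under EtBr on the deposited scale. This was at least 145-fold higher (adjusted p = 8.8e-06). Its array neighbour UGT78D2, which glucosylates flavonols and anthocyanidins, had 450.0, 563 and 418 in the water libraries, 555, 497 and 489 under doxycycline and 671, 535 and 587 under EtBr and did not pass (log2 change 0.31 ± 0.16, adjusted p = 0.14 for EtBr). UGT79B3, which extends anthocyanins under cold and salt stress, had no read in water, 0, 1.01 and 5.10 under doxycycline and 108, 65.5 and 33.8 under EtBr. EtBr was at least 66.1-fold above water (adjusted p = 5e-05). UGT79B2 beside it is 95.8% identical in coding sequence and had 105, 142 and 113 in the water libraries, 194, 212 and 216 under doxycycline and 200.0, 186 and 138 under EtBr, so that some of its reads could belong to its neighbour. Its rise under doxycycline (log2 change 0.79 ± 0.19, adjusted p = 0.024), the 1 call of this list there, was lost without any 1 doxycycline library and also without water replicate 1 or 3 (adjusted p 0.0647 to 0.124). A3G2XYLT, also named UGT79B1, adds xylose to anthocyanins. It had no read in water, 2 reads in 1 doxycycline library, and 25.2, 32.7 and 21.9 under EtBr, at least 25.5-fold above water (adjusted p = 6.2e-05). UGT75C1, the anthocyanin 5-O-glucosyltransferase, had 8.22, 0 and 6.38 in the water libraries, 8.19, 19.2 and 9.17 under doxycycline and 58.2, 104 and 102 under EtBr. It rose under EtBr (log2 change 4.39 ± 0.82, adjusted p = 0.0022), with a log2 change of 3.37 without water replicate 2 and 4.99 without water replicate 1, and did not pass for doxycycline (log2 change 1.57 ± 0.81, adjusted p = 0.26). UGT78D1, which adds rhamnose to flavonols, was lower under EtBr (log2 change -0.80 ± 0.29, adjusted p = 0.046), and the call was lost without water replicate 2 or 3 and also without any 1 EtBr library (adjusted p 0.0765 to 0.143).

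**Figure D4:**
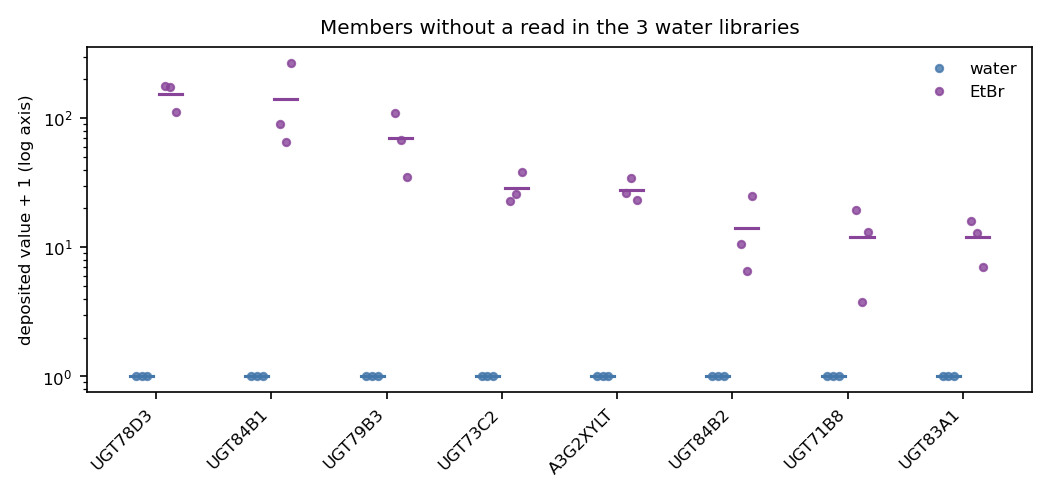
Deposited values plus 1 (log axis) in the water and EtBr libraries of the 8 members with no read in water and a mean of at least 10 under EtBr; points are libraries and short lines group means (n = 3). Water stands at 1, that is at a value of 0, for all 8, and every EtBr library lies above it.

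In all, 13 members had no read in any water library, and 11 of them rose under EtBr, 8 with a mean of at least 10. Their direction was fixed by how they came to be listed, and 53.3% of the 4758 genes at 0 in water rose too, so that the count is a description. UGT83A1 was the last of these 8, with 14.9, 11.96 and 6.04 under EtBr (at least 10.4-fold higher, adjusted p = 0.00052). For 9 of the 13 the doxycycline table had no row.

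Of 8 phenylpropanoid and lignin glycosyltransferases 1 fell under doxycycline and none rose, or 12.5% called against 11.7% of all genes. Under EtBr 2 fell and 1 rose, or 37.5% against 55.4%. UGT72E1 acts on coniferyl aldehyde and was the highest member per kilobase in water. It had 10891, 4506 and 6953 in the water libraries, 6306, 5489 and 5158 under doxycycline and 2802, 2962 and 4258 under EtBr, with water replicate 1 the highest. Its fall under EtBr (log2 change -1.11 ± 0.31, adjusted p = 0.015) was lost without water replicate 3 and also without EtBr replicate 1 or 2 (adjusted p 0.0507 to 0.130), and it did not pass for doxycycline (log2 change -0.33 ± 0.26, adjusted p = 0.48). UGT72E2, which glucosylates coniferyl and sinapyl alcohol, had 103, 82.1 and 177 in the water libraries, 26.6, 46.6 and 25.5 under doxycycline and 87.8, 60.9 and 24.9 under EtBr. Its fall under doxycycline (log2 change -1.83 ± 0.37, adjusted p = 0.0098) was lost without any 1 of the 6 libraries (adjusted p 0.0519 to 0.120), and EtBr overlapped water (log2 change -1.17 ± 0.48, adjusted p = 0.071). UGT72B1, which conjugates monolignols and chlorinated phenols, had 786, 281 and 422 in the water libraries, 410.4, 359.6 and 419.9 under doxycycline and 383, 387 and 635 under EtBr and passed in no comparison. UGT84A2, the sinapate glucosyltransferase, had 273, 231 and 358 in the water libraries, 284, 322 and 296 under doxycycline and 236, 284 and 201 under EtBr and also passed in none. UGT84A1 and UGT84A4, on either side of UGT84A3 and also makers of hydroxycinnamate esters, were called in opposite directions under EtBr. UGT84A1 had 12.3, 1.98 and 20.2 in the water libraries, 15.3, 23.3 and 15.3 under doxycycline and 33.9, 38.2 and 64.7 under EtBr. UGT84A4 had 42.1, 31.7 and 58.5 in the water libraries, 74.7, 57.7 and 52.0 under doxycycline and 9.56, 6.36 and 26.9 under EtBr. The rise of UGT84A1 (log2 change 2.23 ± 0.71, adjusted p = 0.027) was lost without any 1 EtBr library (adjusted p 0.114 to 0.147), and the fall of UGT84A4 (log2 change -1.78 ± 0.54, adjusted p = 0.022) was lost without water replicate 1 or 3 and also without EtBr replicate 1 or 2 (adjusted p 0.0598 to 0.126). Both sterol glucosyltransferases, UGT80A2 and UGT80B1, passed in no comparison. UGT80A2 had 766, 665 and 652 in the water libraries, 641, 730.3 and 746 under doxycycline and 693, 696 and 634 under EtBr, and its change was 0.01 ± 0.12 for doxycycline and -0.06 ± 0.13 for EtBr. UGT80B1 changed by 0.04 ± 0.17 and 0.25 ± 0.17.

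Outside these lists 3 of 48 listed members rose and 5 fell under doxycycline, and 19 of 52 rose and 16 fell under EtBr. The shares that rose, 6.25% and 36.5%, were near the 6.47% and 34.2% of all genes, and 10.4% and 30.8% fell, against 5.27% and 21.2%. Of the 52 members, 5 had no read in water and could not fall under EtBr. The 3 that doxycycline raised were UGT87A2, UGT91A1 and UGT91C1. UGT87A2, known for its part in flowering time, had 972, 1024 and 855 in the water libraries, 2339, 2305 and 2609 under doxycycline and 1897, 2033 and 3508 under EtBr. It rose under doxycycline (log2 change 1.33 ± 0.11, adjusted p = 3.8e-05) and EtBr (log2 change 1.31 ± 0.23, adjusted p = 0.0016), and the treatments did not differ past the threshold (log2 change -0.02 ± 0.23, adjusted p = 0.95). UGT91A1 had 10.3, 6.93 and 9.58 in the water libraries, 69.6, 176 and 122 under doxycycline and 78.2, 54.5 and 28.9 under EtBr, and it rose under doxycycline (log2 change 3.54 ± 0.41, adjusted p = 0.00037) and EtBr (log2 change 2.35 ± 0.45, adjusted p = 0.0025). UGT91C1, known to glucosylate the herbicide sulcotrione, had 228, 107 and 123 in the water libraries, 477, 389 and 524 under doxycycline and 1535, 1606 and 2037 under EtBr. It rose under EtBr (log2 change 3.54 ± 0.28, adjusted p = 3.1e-05), and its rise under doxycycline (log2 change 1.65 ± 0.26, adjusted p = 0.0028) was lost without any 1 doxycycline library and also without water replicate 2 or 3 (adjusted p 0.0604 to 0.0972). Among the falls, UGT71C1 had 132, 63.3 and 117 in the water libraries, 11.3, 17.2 and 1.02 under doxycycline and 64.3, 45.5 and 83.6 under EtBr. The doxycycline libraries were low, and those of EtBr overlapped water. The call (log2 change -3.72 ± 0.72, adjusted p = 0.0082) was lost without doxycycline replicate 1 or 2 and also without any 1 water library (adjusted p 0.0618 to 0.148). The change was -4.33 without doxycycline replicate 2 and -2.77 without doxycycline replicate 3. UGT72D1 had 134, 127 and 168 in the water libraries, 84.95, 67.9 and 56.1 under doxycycline and 33.9, 33.6 and 27.9 under EtBr. It fell under EtBr (log2 change -2.15 ± 0.25, adjusted p = 0.00019), and its fall under doxycycline (log2 change -1.05 ± 0.25, adjusted p = 0.021) was lost without any 1 of the 6 libraries (adjusted p 0.0673 to 0.124). UGT76C4, UGT79B5 and UGT82A1 made up the rest of the 5. UGT79B5 had 25.7, 28.7 and 51.1 in the water libraries, 6.14, 3.04 and 11.2 under doxycycline and 5.22, 0 and 0 under EtBr, and its call under doxycycline (log2 change -2.30 ± 0.52, adjusted p = 0.018) was lost without any 1 of the 6 libraries (adjusted p 0.0585 to 0.136). UGT82A1 had 17 reads over the water libraries and none under doxycycline, and its call (adjusted p = 0.015) was lost without any 1 doxycycline library (adjusted p 0.0587 to 0.0589).

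EtBr lowered several abundant members that doxycycline did not move past the threshold. UGT71B1 had 561, 612 and 600.1 in the water libraries, 758, 708 and 656 under doxycycline and 147, 146 and 148 under EtBr. The EtBr libraries were nearly equal and far below all others (log2 change -2.02 ± 0.14, adjusted p = 1.8e-05). AT2G18560, beside UGT72D1 on chromosome 2, had 331, 411 and 266 in the water libraries, 280.4, 279 and 278 under doxycycline and 58.2, 51.8 and 35.8 under EtBr, and the EtBr libraries lay below all others (log2 change -2.79 ± 0.26, adjusted p = 7.1e-05). UGT86A2 fell as well (log2 change -1.43 ± 0.16, adjusted p = 0.00015), as did UGT71D1 (log2 change -1.68 ± 0.20, adjusted p = 0.00022) and UGT71C2 (log2 change -1.25 ± 0.24, adjusted p = 0.0027). AT2G30150 had 173, 199 and 169 in the water libraries, 284, 257 and 176 under doxycycline and 81.7, 45.5 and 46.8 under EtBr and fell under EtBr (log2 change -1.69 ± 0.28, adjusted p = 0.0011), while UGT87A2 next to it rose. Upward, AT1G01390 had 41.1, 64.3 and 81.9 in the water libraries, 97.2, 68.9 and 69.3 under doxycycline and 318, 297 and 338 under EtBr and rose under EtBr (log2 change 2.36 ± 0.27, adjusted p = 0.00016), while UGT72B3 next to it fell (log2 change -1.24 ± 0.24, adjusted p = 0.0026). UGT89B1 had 324, 256 and 263 in the water libraries, 402, 400.1 and 303 under doxycycline and 1341, 1264 and 1402 under EtBr and rose under EtBr (log2 change 2.23 ± 0.14, adjusted p = 1.3e-05). UGT71B5 had 4.11, 0.990 and 27.7 in the water libraries, 36.8, 20.3 and 30.6 under doxycycline and 94.8, 89.1 and 190.0 under EtBr, and its rise under EtBr (log2 change 4.14 ± 0.88, adjusted p = 0.0042) was lost without any 1 EtBr library (adjusted p 0.0506 to 0.0537). The change was 3.27 without water replicate 2 and 5.20 without water replicate 3. AT4G15260, in the same array, had 523, 524 and 495 in the water libraries, 676, 626 and 658 under doxycycline and 1614, 1502 and 1476 under EtBr and rose (log2 change 1.55 ± 0.12, adjusted p = 2.6e-05).

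Neighbours did not always share a direction. Over all genes 11.7% passed under doxycycline, 55.4% under EtBr and 57.3% between the treatments, so that many arrays with calls are no trait of the members. Under doxycycline 4 of 19 arrays with at least 2 tested genes had 2 or more calls, and all 4 went 1 way within the array. Under EtBr 15 of 22 had 2 or more calls, 9 in 1 direction and 6 in both. Between the treatments 12 of 19 had 2 or more, 5 in 1 direction and 7 in both. The 4 non-coding members lie opposite genes on the other strand. AT2G31751 shares 3089 bases with AT2G31750, which is 1 of the UGT74 genes left out by the rule. AT3G46668 shares 1809 bases with AT3G46670, and AT2G36792 shares 1694 with AT2G36790. No source used here tells whether strand was kept, and the reads of these members cannot be told apart from those of the opposite gene. AT2G31751 had 58.6, 56.4 and 40.4 in the water libraries, 98.2, 78.0 and 57.1 under doxycycline and 422, 419 and 370.1 under EtBr and rose under EtBr (log2 change 2.93 ± 0.21, adjusted p = 2.3e-05). AT3G46668 was lower under EtBr (log2 change -1.31 ± 0.37, adjusted p = 0.016), and the call was lost without water replicate 1 or 3 and also without EtBr replicate 1 or 3 (adjusted p 0.0555 to 0.0691). Of all members 24 overlap another annotated gene, 20 of them on the opposite strand.

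Per kilobase of gene length, UGT72E1 was the highest member in water, at 3654 ± 1585 (SD, n = 3) on the scale of the deposited doxycycline table. UGT85A1 followed at 1201 ± 147 and UGT85A2 at 781 ± 270, both below UGT72E1 by more than the SDs. UGT85A2 and UGT71C5, at 694 ± 7.37, did not differ beyond their spread. Under doxycycline UGT85A1 stood first at 3145 ± 426, then UGT72E1 at 2742 ± 276 and UGT73C5 at 2739 ± 733, and these 3 did not differ beyond their spread. Under EtBr, on the scale of that table, UGT73C5 came first at 2710 ± 58.5. UGT73B4 was at 1804 ± 387, UGT72E1 at 1692 ± 405 and UGT75D1 at 1501 ± 140, which did not differ beyond their spread.

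Genes that supply, carry and regulate were measured beside the members. Among all genes 6.47% rose and 5.27% fell under doxycycline, and 34.2% rose and 21.2% fell under EtBr. Of 14 UDP-sugar supply genes doxycycline raised 2, or 1 without its replicate 1 or 2, and EtBr raised 8 and lowered 3. SUS1, a sucrose synthase that releases UDP-glucose, rose under doxycycline (log2 change 1.81 ± 0.20, adjusted p = 0.00031) and EtBr (log2 change 2.98 ± 0.23, adjusted p = 2.8e-05), and SUS4 rose under EtBr (log2 change 3.26 ± 0.49, adjusted p = 0.00069). Of the 4 vacuolar ABCC transporters, which carry conjugates, doxycycline raised 3, or 1 without any 1 of its libraries and 2 without water replicate 2. EtBr raised 1 and lowered 2, or 1 without any 1 EtBr library or water replicate 1. ABCC3 went from 1749 ± 182 in water to 7892 ± 1694 under doxycycline on the deposited scale (log2 change 2.16 ± 0.16, adjusted p = 1.4e-05) and rose under EtBr (log2 change 2.11 ± 0.17, adjusted p = 3.5e-05). ABCC2 rose under doxycycline (log2 change 1.00 ± 0.15, adjusted p = 0.0023), a call that was lost without any 1 doxycycline library (adjusted p 0.0506 to 0.0719), and fell under EtBr (log2 change -1.08 ± 0.18, adjusted p = 0.0013). Of the TGA factors, SCL14 and its target ANAC032, doxycycline raised 1 of 5, and EtBr raised 2 and lowered 2. The 2 lower under EtBr were TGA2 and TGA5, and both calls held with any 1 library left out. For doxycycline TGA2 (log2 change -0.25 ± 0.14, adjusted p = 0.29) and TGA5 (log2 change -0.25 ± 0.15, adjusted p = 0.32) did not pass. ANAC032 rose under both (log2 change 2.34 ± 0.18, adjusted p = 1.9e-05 and 2.91 ± 0.17, adjusted p = 9.6e-06), and SCL14 rose under EtBr (log2 change 0.90 ± 0.15, adjusted p = 0.0013).

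Markers of tissues moved in the same libraries. Among all genes 11.7% passed under doxycycline and 55.4% under EtBr. Under doxycycline 47.1% of the root markers and 16.7% of the green tissue markers passed, and under EtBr 47.1% and 83.3% did. Of 17 root markers 8 fell under doxycycline, 4 to 6 with a library left out, and none rose. Their summed value was 1279 to 1604 against 1706 to 3097 in water, and EXPA18 was at 0. AIR1 (log2 change -6.69 ± 0.38, adjusted p = 2.6e-06) and RHS19 (log2 change -5.84 ± 0.60, adjusted p = 0.00016) fell. Another 9 did not pass. Of these, SCR, SHR, GL2 and MYB36 changed by 0.06, 0.17, 0.13 and 0.37, while CASP1, PLT1, WER, PIN2 and COBL9 changed by -0.66 to -2.70. Under EtBr 6 fell and 2 rose, or 3 fell without EtBr replicate 2 or 3, and none rose without water replicate 2 or any 1 EtBr library and 1 without water replicate 1, with sums of 1824 to 2300 against 1810 to 3217. The falls of CASP1, SCR and SHR under EtBr held with any 1 library left out, and those of PLT1, WER and PIN2 did not. RHS19 was higher under EtBr (log2 change 1.35 ± 0.35, adjusted p = 0.011), and the call was lost without water replicate 2 and also without any 1 EtBr library (adjusted p 0.0510 to 0.0992). EXPA7 was the other rise (log2 change 1.26 ± 0.42, adjusted p = 0.031), and it was lost without water replicate 1 or 2 and also without any 1 EtBr library (adjusted p 0.0529 to 0.164). Of 12 green tissue markers 2 fell under doxycycline, or 1 in 5 of the 6 omissions, with sums of 551012 to 617584 against 597402 to 647270 in water. Under EtBr 7 fell and 3 rose, with sums of 344539 to 496767 against 620538 to 686941. PSAD1 was lower (log2 change -1.68 ± 0.14, adjusted p = 3.6e-05) and LHCB2.1 higher (log2 change 1.90 ± 0.14, adjusted p = 2.7e-05) under EtBr. The part of these markers in the members' changes was not tested.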

How the data were processed

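RNA from whole seedlings was extracted with TRIzol and made into libraries with the NEBNext Ultra kit, per the labels' protocols. Per the submitters' processing notes, the tools included HTSeq 0.6.1, DESeq 1.18.0, TopHat2 2.0.12, Bowtie2 2.2.3 and CASAVA 1.8. No source used here names the genome build or a strand setting. The authors deposited 2 tables, each of one treatment and water, with a normalized signal per gene and library (reads divided by a size factor), a log2 fold change and p-values. All deposited values were whole reads within 0.001 read after rescaling, and the water reads were equal in both tables for 100% of 24319 shared genes. In 4 columns the steps lie near 1, where this check is weak.

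Each comparison with water was fitted on log2(deposited value + 1) with limma 3.58.1 in R 4.3.3, with a variance trend and Benjamini-Hochberg adjustment. EtBr against doxycycline used the recovered reads of the shared genes with common size factors. The procedure was tested on simulated data. Alternatives were edgeR 4.0.16, DESeq2 1.42.0, the authors' adjusted p-values, scalings, pseudocounts, filters, thresholds and left-out libraries.

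Members and lists were chosen with earlier results of these data known. By rule the text names the 5 largest rises and falls per comparison with a mean of at least 50, the 2 smallest adjusted p per list, members called in opposite directions, members at 0 in water with a mean of at least 10, and 8 members by name. Members named to complete an array, list or count were chosen after their values were seen. Of 58 listed member genes 6 are not analysed here. Coordinates are of TAIR10.1, in which all 104 members have the start and end of the files. The fewest reads of a listed gene were 2 in each table.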

Additional observations from a re-analysis of the deposited data

How the results depend on the processing

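No called change was reversed under any alternative run. Over the 6 counts of members higher or lower, 97 recomputed values lay within 1.5 times the main value and 9 did not. The 8 members lower in doxycycline against water became 4 without the variance trend, 3 at an adjusted p under 0.01, and 0 to 2 with a library left out. The 20 lower in EtBr against water became 13 at an adjusted p under 0.01. Of the other counts, DESeq2 gave 19 higher and 8 lower for doxycycline, and 45 higher and 22 lower for EtBr. Scaling by library total in place of median ratios gave 34 higher and 23 lower in EtBr against doxycycline. Equal replicate numbers did not mark pairs: their correlations were -0.0147 to 0.0346 for doxycycline and water and -0.1381 to 0.1165 for EtBr and water. For EtBr and doxycycline they were 0.0488 to 0.207, with 4 of 6 libraries closest to their own number, a hint from the data and not from the design. With the replicate block 15 members were higher and 8 lower for doxycycline, 45 and 21 for EtBr, and 32 and 25 between the treatments, and 22 of 26, 65 of 66 and 53 of 56 calls were kept. Members with few reads in water have folds that depend on the added count of 1, and 3 libraries per group limit the precision of each change.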
